A study of Mus musculus with 6 samples.

Results

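The mesenchymal-like pericytes described here are the cells that carry cluster number 8 in the study's integrated data of the NG2 line, a mouse line in which cells that have used the *Cspg4* (NG2) promoter are marked with the red fluorescent protein tdTomato (tdT). They are 498 of the 10455 cells of that line and of 17033 cells in the series, which also holds the Tbx18 line. They were chosen by cluster number alone, with the library of each cell taken from its label. 177 came from the naive library, 81 from the physical injury library and 240 from the ischemic injury library. They are compared with the canonical pericytes of clusters 1 (1713 cells) and 2 (1557 cells), summed.

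All 3 NG2 libraries were made from cerebral cortex of NG2-Cre-ERT2/Ai14-flx mice aged 3 to 4 months that had received tamoxifen, and live tdT+/DAPI- cells were sorted. The naive mice were not injured. The physical injury mice received saline by intracerebral injection, and the ischemic injury mice received ET-1/L-NAME (endothelin-1 and an inhibitor of nitric oxide synthases) the same way, in both cases 7 days after tamoxifen and 3 days before the cells were collected. Each library was pooled from several mice of both sexes, so that every condition is 1 library and no difference between conditions could be tested. The *Cspg4* promoter is also used by smooth muscle cells and by the oligodendrocyte lineage, and the sort for tdT sets which cells enter a library. 10 barcodes were shared by at least 2 NG2 libraries (20 cells), and none of them was in cluster 8. The Tbx18 line, used only in a later section, also has 1 library for each condition. Its cells came from cerebral cortex of Tbx18-CreERT2/Ai14-flx mice aged 3 to 4 months, with the same tamoxifen, injuries and sort.

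Pericytes lie in the basement membrane of capillaries, where they touch endothelial cells and help to keep the blood-brain barrier closed. They make basement membrane and other matrix proteins, and like other stromal cells they can release chemokines that draw leukocytes to a site of damage. Mesenchymal stromal cells are known for matrix remodelling, for contractile and cytoskeletal proteins and, in lymphoid organs, for chemokines such as *Ccl19*, the ligand of Ccr7 that guides T cells and dendritic cells. The 6 genes that mark the cluster cover several of these roles.

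The mesenchymal-like pericytes were a small share of each library. They made up 4.11% of naive cells (95% exact Clopper-Pearson interval 3.54 to 4.75), 3.16% of physical injury cells (2.52 to 3.91) and 6.69% of ischemic injury cells (5.90 to 7.56). Of the 5 pericyte clusters alone (0, 1, 2, 8 and 10), they were 5.11%, 6.69% and 17.5%. Against the naive library, the ischemic share of pericytes was higher by 12.4 percentage points (10.3 to 14.7) and the physical injury share by 1.58 points (0.028 to 3.30). On the denominator of all cells, the physical injury share was instead lower than the naive share by 0.95 points (interval -1.85 to -0.0042). These intervals hold counting error and no spread between mice or sorts. The genes that define the cluster also differed between the libraries, and therefore the shares describe how the cells were assigned, not how many cells of a type a cortex holds.

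**Figure D1:**
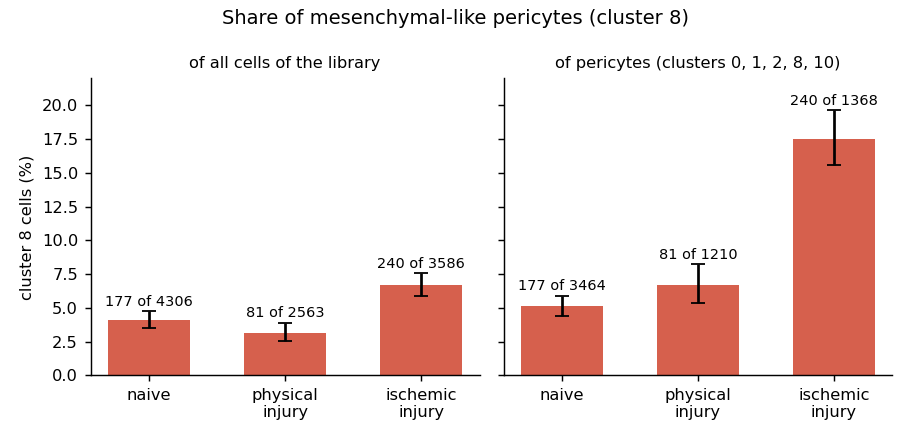
Share of mesenchymal-like pericytes (cluster 8, in %) among all cells of each NG2 library (left) and among the cells of the 5 pericyte clusters (right), with 95% exact Clopper-Pearson intervals and the cell numbers above the bars. The ischemic injury bar is the highest in both panels, 6.69% and 17.5%, while the order of the naive and physical injury bars depends on the denominator.

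The cells were sequenced to unequal depth. The annotated cells of the NG2 libraries hold 20264659, 24674494 and 54276245 UMIs (naive, physical injury and ischemic injury). Of these, the mesenchymal-like pericytes' UMIs (unique molecular identifiers, each 1 captured transcript) summed to 739344 in the naive, 759556 in the physical injury and 2468003 in the ischemic injury library, with medians of 4026, 7733 and 8444 UMIs per cell. The canonical pericytes had medians of 3594, 4589 and 3858. Levels are given as CPM, the UMIs of a gene as a part of all UMIs of the cells concerned on a common scale, in the order naive, physical injury and ischemic injury unless stated otherwise. Intervals in parentheses are 95% exact intervals of the counts. A gene with 0 counts is bounded by 3 counts, which is 4.06, 3.95 and 1.22 CPM in the mesenchymal-like and 0.410, 0.880 and 1.32 CPM in the canonical pericytes.

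All 6 marker genes were higher in cluster 8 than in every other cluster with at least 20 cells, in all 3 libraries (9, 11 and 11 clusters ranked). Because clusters were formed on expression, these levels describe the cluster and are no test of it. *Rgs16* (chr1:153740349-153745468, plus strand, mm10), which encodes a regulator of G protein signalling, was at 496 (447 to 549.9), 611 (557 to 669) and 361 (337 to 385) CPM. In canonical pericytes it was at 18.9, 19.4 and 23.7 CPM, so that it stood 26.3-fold higher, 31.5-fold higher and 15.2-fold higher in cluster 8, and 50.8, 58 and 70.8% of the mesenchymal-like pericytes had a UMI of it. *Nnmt* (chr9:48591877-48605153, minus strand), the enzyme that methylates nicotinamide, was at 82.5 (63.1 to 106), 79 (60.3 to 102) and 52.7 (44 to 62.5) CPM, against 5.06, 1.47 and 7.89 CPM. The ratio of *Nnmt* to canonical pericytes was 16.3-fold higher (10.7 to 25.2) in the naive, 53.9-fold higher (21.8 to 172) in the physical injury and 6.67-fold higher (4.06 to 11.6) in the ischemic injury library.

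*Ccl19* (chr4:42754525-42756577, minus strand) and *Timp1* (chrX:20870166-20874735, plus strand), an inhibitor of matrix metalloproteinases, were opposite across the libraries. *Ccl19* was at 249 (214 to 288), 219.9 (188 to 256) and 7.29 (4.32 to 11.5) CPM, so that the ischemic library was low and the intervals of the other 2 overlapped. In canonical pericytes only 2, 2 and 0 counts of *Ccl19* were found. The ischemic level in cluster 8 was 34.1-fold lower (21 to 58.9) than the naive and 30.1-fold lower (18.5 to 52.1) than the physical injury level. *Ccl19* has near-identical copies on chromosome 4 and on an unplaced contig in the annotation, and reads shared among them make its counts uncertain. *Timp1* was at 4.06 (0.837 to 11.9), 124 (100.01 to 151) and 196 (179 to 214) CPM, from 3, 94 and 484 counts. It was 30.5-fold higher (10.1 to 151) after physical and 48.3-fold higher (16.4 to 235) after ischemic injury than in naive cells, and in the naive library it did not mark the cluster beyond the limit of 3 counts.

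*Loxl2* (chr14:69609068-69695834, plus strand), a lysyl oxidase-like enzyme that crosslinks collagen, followed *Timp1* with 33.8 (21.9 to 49.9), 191 (161 to 225) and 172 (156 to 189) CPM, against 10.3, 13.5 and 28.9 CPM in canonical pericytes. Both injury libraries were above the naive one, 5.65-fold higher (3.68 to 9.01) and 5.08-fold higher (3.39 to 7.94). In canonical pericytes *Loxl2* was also 2.82-fold higher (1.99 to 3.98) in the ischemic than in the naive library. *Ccl11* (eotaxin, chr11:82057823-82062955, plus strand) was at 77.1 (58.4 to 99.9), 108 (85.9 to 134) and 138 (124 to 154) CPM and rested on few cells. The top cell of each library held 40.4, 45.1 and 64.5% of its UMIs, and without that cell the levels were 46.4, 59.7 and 49.8 CPM. The receptor genes *Ccr7* and *Ccr3* are not among the genes of the counts used here, so no level of them could be given.

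**Figure D2:**
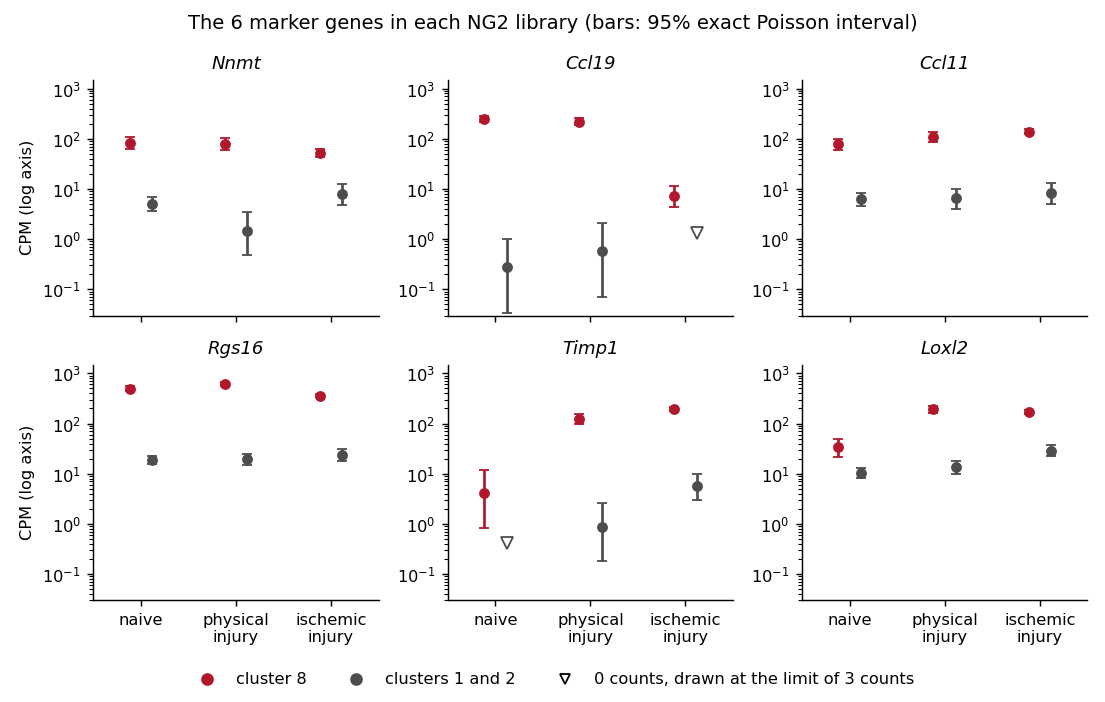
Level of the 6 marker genes (CPM, log axis) in cluster 8 (red) and in clusters 1 and 2 (grey) of each NG2 library, with 95% exact Poisson intervals. Open triangles stand for 0 counts, drawn at the limit of 3 counts. *Ccl19* in cluster 8 is at 249 CPM in the naive and at 7.29 CPM in the ischemic injury library, and *Timp1* has the opposite order, 4.06 and 196 CPM.

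The markers were spread unevenly over the cells. None of the 6 had a UMI in 47 naive (26.6%), 13 physical injury (16.0%) and 18 ischemic injury cells (7.5%). At least 3 were seen in 22 (12.4%), 32 (39.5%) and 87 (36.2%) cells, and all 6 in a single physical injury cell. *Ccl19* without *Timp1* was seen in 54, 14 and 8 cells, *Timp1* without *Ccl19* in 2, 28 and 113, and both together in 1, 3 and 0. Deeper cells show more genes, so the cells were also thinned to 1000 UMIs, which left out 3, 1 and 3 shallower cells. No marker was then seen in 56.3%, 57.5% and 49.8% of cells. At this common depth *Ccl19* had a UMI in 16.1, 8.75 and 1.27% of cells, *Timp1* in 0.575, 8.75 and 10.5% and *Rgs16* in 26.4, 21.2 and 29.1%. Oligodendrocytes (cluster 4), which should lack these genes and had medians of 13252, 23779 and 29600.5 UMIs, showed at most 0.699% for any of the 6 markers after thinning. Without thinning, *Rgs16* had a UMI in 0.971, 0.680 and 3.38% and *Timp1* in 0, 0.340 and 1.69% of oligodendrocytes, against 50.8, 58 and 70.8% and 1.69, 38.3 and 47.1% of mesenchymal-like pericytes.

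All 12 genes of the pericyte list were detected in cluster 8 in every library. They summed to 27772, 28688 and 26083 CPM, below the 40664, 38542 and 40394 CPM of canonical pericytes. *Vtn* (vitronectin), the list's most abundant gene, was at 12251, 14978 and 12642 CPM against 19460.0, 18444 and 18332 CPM. *Pdgfrb*, the receptor that pericytes need for recruitment to vessels, was at 1339, 1032 and 983 CPM against 1687, 1582 and 1625 CPM. The potassium channel genes *Kcnj8* (1204, 952 and 1113 CPM) and *Abcc9* (791, 968 and 1079 CPM) were likewise present in every library. *Cspg4*, whose promoter drives the label, was at 509.9, 606 and 444 CPM. These cells thus carried the pericyte genes at a lower level than canonical pericytes, with *Cd248* in the injury libraries (291, 725 and 928 against 442, 438 and 511 CPM) and *Notch3* in the naive library as exceptions.

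Markers of smooth muscle and fibroblasts were higher than in canonical pericytes. The 8 smooth muscle genes summed to 3325, 6625 and 4175 CPM against 2479, 2292 and 2580.0 CPM, led by *Myl9* in the naive and ischemic and by *Acta2* (smooth muscle actin) in the physical injury library. *Myh11*, the smooth muscle myosin, was at 66.3, 88.2 and 17.8 CPM against 88.3, 105 and 92.1 CPM, and *Cnn1* (calponin) was at 0 in the naive and ischemic libraries. At least 3 smooth muscle genes with 2 or more UMIs each were seen in 50 (28.2%), 49 (60.5%) and 125 (52.1%) cells, compared with 10.9%, 13.1% and 11% of canonical pericytes. Of the fibroblast list, 11 genes were measured. They summed to 852, 1253 and 833 CPM against 453, 453 and 432 CPM, led by *Col3a1*, *Col3a1* and *Dcn*, while *Lum* and *Col1a1* were at 0 in the naive library and *Pdgfra* and *Lum* in the physical injury library. At least 3 fibroblast genes with 2 or more UMIs each were seen in 10 (5.65%), 14 (17.3%) and 34 (14.2%) cells, compared with 0.306%, 1.24% and 0.859% of canonical pericytes. Deeper cells meet such a cutoff more easily. Cluster 8 had medians of 4026, 7733 and 8444 UMIs per cell, against 3594, 4589 and 3858 in canonical pericytes. The cells past the smooth muscle cutoff had 4728, 9408 and 11421, and those past the fibroblast cutoff 6678.5, 8856 and 13253. The part of depth in these shares was not tested.

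The endothelial list summed to 316, 739 and 673 CPM against 158, 204 and 224 CPM. Most of this was *Flt1*, a receptor of VEGF (283, 611 and 607 CPM), while the tight junction gene *Cldn5* was at 1.35, 44.8 and 23.5 CPM. At least 3 endothelial genes were present at 2 or more UMIs in 0, 1 and 4 cells. Oligodendrocyte genes summed to 189, 97.4 and 213 CPM against 216, 149 and 444 CPM in canonical pericytes, and OPC genes to 31.1, 26.3 and 35.7 CPM. Microglial genes summed to 16.2, 11.8 and 23.9 CPM, and genes of radial glia-like cells to 14.9, 34.2 and 67.7 CPM against 13.5, 20.8 and 78 CPM. Astrocyte, neuron, other leukocyte and red blood cell genes were at or near 0, with no list above 2.84 CPM in any library, and *Ptprc*, the pan-leukocyte gene, was at 0 in all 3. No cell had 3 genes of the OPC, oligodendrocyte, microglia, astrocyte, neuron or leukocyte list at 2 or more UMIs. The part of these other cell types in the levels given below was not tested, except where values without some cells are given. These are values without the cells rich in smooth muscle or fibroblast genes. Under the processing there are also gene counts without the 0, 1 and 4 cells with genes of other cell types.

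Genes were compared with canonical pericytes within each library, as the log2 ratio of CPM + 1, and a gene entered with at least 10 CPM in the higher group. At least 2-fold higher in the mesenchymal-like pericytes were 580 of 9615 genes (6.03%) in the naive, 770 of 9567 (8.05%) in the physical injury and 586 of 9407 (6.23%) in the ischemic injury library. At least 2-fold lower were 437 (4.54%), 871 (9.1%) and 861 (9.15%). The same way in all 3 libraries were 177 higher (1.99% of 8904 genes) and 103 lower (1.16%). With TMM scaling factors in place of UMI totals, these were 199 higher and 87 lower genes, among them all 177 and 87 of the 103. A rule over 2 libraries in place of 3 admits more genes, 416 higher and 377 lower without the naive, 198 and 163 without the physical injury, and 279 and 149 without the ischemic injury library. TMM moved the median log2 ratio of all genes in the ischemic library from -0.18 to 0.03. As clusters were formed on expression, and a gene that enters through the group where it is high has to differ, these counts serve as background and not as a result.

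The genes that stood farthest above canonical pericytes in all 3 libraries included 4 that encode secreted signals. *Cxcl1* (chr5:90891241-90893115, plus strand), which attracts neutrophils, was at 655, 719 and 686 CPM against 8.89, 4.40 and 15.3 CPM. It was 73.6-fold higher (56.7 to 96.9), 163-fold higher (98.2 to 294) and 44.7-fold higher (32 to 64.4). Its level was similar in the 3 libraries, but in the physical injury library it lay almost wholly in the 51 cells rich in smooth muscle or fibroblast genes (929 CPM, against 22.7 CPM in the other 30 cells). In the naive library these were 962 and 464 CPM. *Cxcl1* had a UMI in 33.3, 39.5 and 56.2% of cells. After thinning to 1000 UMIs these shares were 20.1, 20 and 26.6%, against 0.621, 0.284 and 0.949% of canonical pericytes. *Ccl2* (chr11:82035571-82037453, plus strand), which attracts monocytes, was at 300.3, 84.3 and 369 CPM against 0.821, 1.47 and 5.70 CPM. In naive cells 1 cell held 53.6% of the *Ccl2* UMIs, and without the top cell of each library the levels were 140.3, 64.7 and 318 CPM, in the same order. The microglia of the NG2 line (cluster 9) had more *Ccl2*, 638 and 883 CPM after physical and ischemic injury. *Il11* (chr7:4772373-4782859, minus strand), a cytokine of the IL-6 family, was at 114, 56.6 and 321 CPM, but it was seen in 2, 9 and 38 cells only. Without the top cell of each library its level was 28.7, 20.3 and 170.2 CPM, highest in the ischemic library either way. *Ccl11* was the fourth.

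Of the 13 chemokine genes measured, 5 entered in all 3 libraries and 4 of them (*Ccl2*, *Ccl11*, *Cxcl1* and *Cxcl2*) were at least 2-fold higher each time, beside 1.99% of all genes. *Cxcl2*, a close relative of *Cxcl1*, was at 10.8, 21.1 and 121 CPM. The naive value rests on 1 cell with 87.5% of its UMIs, and without each library's top cell the levels were 1.36, 9.55 and 82.2 CPM. The microglia of the line (cluster 9) had more *Cxcl2*, 741 and 1453 CPM after physical and ischemic injury. In the single libraries 5 of 6, 7 of 8 and 6 of 7 chemokine genes were higher, with median log2 ratios of 4.75, 4.79 and 4.90, beside medians of -0.06, -0.14 and -0.18 over all genes. Only 1 or 2 chemokine genes reached 10 CPM in the injury comparisons of canonical pericytes. Most of those counted here thus entered through cluster 8, where they are high. The chemokine counts and medians therefore describe the cluster and are not a result. *Cxcl12*, the ligand of Cxcr4, was instead lower than in canonical pericytes in both injury libraries.

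The NF-kB family of transcription factors is known to bind kB sites, here searched as GGG and TTTCC with any 2 bases between them, in the promoters of *Cxcl1* and *Cxcl2*, which lie side by side on chromosome 5. The 250 bases before their RefSeq start sites (GRCm38.p6, plus strand) are shown because *Cxcl1* was high in every library and *Cxcl2*, its neighbour, was high after ischemic injury. The 2 marker genes with an entry on the plus strand, *Rgs16* and *Timp1*, are shown beside them. Capitals mark matches to this kB motif on either strand, and the sequences read 5′ to 3′ from chr5:90890995-90891244, chr5:90903649-90903898, chr1:153740103-153740352 and chrX:20869916-20870165.
Cxcl1: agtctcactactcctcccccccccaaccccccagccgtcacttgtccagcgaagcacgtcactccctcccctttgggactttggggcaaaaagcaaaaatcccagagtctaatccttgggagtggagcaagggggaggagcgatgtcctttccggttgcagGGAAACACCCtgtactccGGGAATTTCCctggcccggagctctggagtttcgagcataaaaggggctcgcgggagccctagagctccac
Cxcl2: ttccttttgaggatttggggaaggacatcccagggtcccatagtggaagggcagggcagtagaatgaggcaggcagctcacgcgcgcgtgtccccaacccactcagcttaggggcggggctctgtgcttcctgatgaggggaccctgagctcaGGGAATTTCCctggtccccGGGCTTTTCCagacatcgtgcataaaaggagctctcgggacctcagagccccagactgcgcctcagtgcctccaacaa
Rgs16: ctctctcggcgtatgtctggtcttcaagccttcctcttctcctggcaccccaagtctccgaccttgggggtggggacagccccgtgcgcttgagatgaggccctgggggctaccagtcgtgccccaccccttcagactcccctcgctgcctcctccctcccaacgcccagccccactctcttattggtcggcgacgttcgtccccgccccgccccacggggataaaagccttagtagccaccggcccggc
Timp1: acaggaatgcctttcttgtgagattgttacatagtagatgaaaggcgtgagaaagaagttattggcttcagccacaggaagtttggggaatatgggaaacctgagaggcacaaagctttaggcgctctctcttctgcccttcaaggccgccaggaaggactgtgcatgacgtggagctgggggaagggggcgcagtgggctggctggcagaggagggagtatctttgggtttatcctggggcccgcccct

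*Cxcl1* holds the matches GGAAACACCC and GGGAATTTCC and *Cxcl2* the matches GGGAATTTCC and GGGCTTTTCC, the nearest to the 5′ end starting 89 and 97 bases before the start site. *Rgs16* and *Timp1* hold none in this window. The kB motif occurs in 464 of 32851 RefSeq promoters of this length (1.41%), TGANTCA, bound by AP-1 factors, in 2217 (6.75%) and TATAAA in 4063 (12.4%). Of 65 genes looked up, 45 had a promoter entry, with 64 promoters among them. 5 promoters had a kB match (*Cxcl1*, *Cxcl2*, *Vim*, *Tmem176a* and *Tmem176b*), 6 a match to TGANTCA and 7 one to TATAAA. A match is a run of letters and not a measured binding site. The part of NF-kB in the levels of *Cxcl1* and *Cxcl2* was not tested.

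Counts of the lists below against canonical pericytes, like those of the chemokines, describe the cluster and are not a result. Clusters were formed on expression, and the lists were chosen with earlier results of these data known. Genes of the NF-kB list were higher. 8 of the 11 that entered were at least 2-fold above canonical pericytes in all 3 libraries (1.99% of all genes were), among them *Nfkbia*, the inhibitor that NF-kB itself induces (381, 602 and 792 against 115, 132 and 179 CPM). *Nfkbiz*, a nuclear member of the same inhibitor family, was at 192, 116 and 111 CPM against 24.8, 22.6 and 36.8 CPM. The others were *Tnfaip3*, *Nfkb2*, *Relb*, *Bcl3*, *Icam1* and *Birc3*. Of the interferon response list, 10 of 17 were higher in all 3 libraries, beside the same 1.99%, including *Irf1* (107, 98.7 and 78.2 against 7.39, 8.21 and 18 CPM) and *Ifitm3* (1986, 3253 and 3618 against 890.5, 937 and 1599 CPM). In contrast, only *Psmb8* of 9 genes for MHC class I presentation was higher, and *B2m*, the light chain, was at 316, 562 and 559 CPM against 224, 203 and 306 CPM. *Serping1*, the C1 inhibitor of the complement cascade, was at 215, 316 and 274 CPM against 44.9, 52.8 and 84.6 CPM.

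Immediate early genes were also higher than in clusters 1 and 2. *Atf3*, a stress-induced transcription factor, was at 1401, 313 and 584 CPM against 50.5, 19.1 and 75.9 CPM, highest in the naive cells, but in cluster 3 of the line it was at 3193, 2044 and 2313 CPM. The metallothionein gene *Mt1* was at 1069.9, 574 and 1007 CPM against 59.2, 41.7 and 97.3 CPM, *Gadd45g* at 87.9, 145 and 109 CPM against 7.80, 5.57 and 13.6 CPM and *Csrnp1* at 119, 72.4 and 81 CPM against 9.85, 8.51 and 3.95 CPM. Among the 9, 11 and 11 clusters with at least 20 cells, cluster 8 was at rank 3, 4 and 4 for *Atf3*, 2, 4 and 4 for *Csrnp1* and 3, 4 and 6 for *Gadd45g*. 10 of 13 immediate early genes were at least 2-fold higher in all 3 libraries, beside 1.99% of all genes. Without the cells rich in smooth muscle or fibroblast genes the log2 ratio of *Csrnp1* in the physical injury library was 0.92 and no longer past 2-fold. *Fos* was at 10719, 3884 and 5485 CPM against 1856, 848 and 1719 CPM, and in both cell groups the naive library was the highest. Enzymatic dissociation is known to induce these genes, and its part in their levels was not tested. *Rasd1*, a small GTPase, was at 79.8, 118 and 116 CPM against 3.56, 2.64 and 5.26 CPM, but in cluster 3 it was at 580, 632 and 555 CPM.

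Cytoskeletal genes made up another part of the profile. *Tagln*, an actin-binding protein of smooth muscle, was at 289, 1128 and 475 CPM against 23.5, 15.8 and 32.9 CPM, and *Csrp1*, a LIM protein of the actin cytoskeleton, at 115, 315 and 247 CPM against 9.03, 7.33 and 12.7 CPM. *S100a6*, a calcium-binding protein, was at 75.7, 665 and 521 CPM against 1.23, 3.52 and 20.2 CPM. All 3 genes were higher in other clusters of the line. *Tagln* was at 9294, 9656 and 8572 CPM in the smooth muscle cells (cluster 3). The highest *Csrp1* level was 1394 CPM (cluster 4), 1355 CPM and 1189 CPM (both cluster 3). For *S100a6* it was 206 CPM (cluster 3), 1529 CPM (cluster 7) and 1007 CPM (cluster 6). 8 of 14 genes of the mesenchymal surface and cytoskeletal list were higher in all 3 libraries, beside 1.99% of all genes (*Cd44*, *Vim*, *S100a6*, *S100a11*, *Lgals1*, *Anxa1*, *Anxa2* and *Tmsb10*). These levels moved with the cells rich in smooth muscle or fibroblast genes. Without those cells (54, 51 and 130 left out, with median UMIs of 4805, 9408 and 11395.5, and 123, 30 and 110 kept), *Tagln* was at 46, 17 and 16.6 CPM, so that its log2 ratio to canonical pericytes was 0.94, 0.10 and -0.95. *Tagln* is on the list used to leave cells out, which lowers it by construction. In the remaining cells *Cxcl1* was at 464, 22.7 and 619.9 CPM, *Rgs16* at 326, 125 and 341 CPM and *Nnmt* at 56.9, 17 and 24.2 CPM, all lowest in the 30 physical injury cells.

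Matrix genes were mixed. *Col18a1*, the precursor of endostatin, was at 134, 129 and 97.6 CPM against 5.34, 5.28 and 7.89 CPM, and the fibrillar collagen gene *Col3a1* at 357, 474 and 164 CPM against 42.4, 51 and 49.5 CPM. Of the 10 collagen genes that entered in all 3 libraries, *Col3a1*, *Col5a1* and *Col18a1* were higher and *Col4a5* was lower, beside 1.99% and 1.16% of all genes. *Adamts4*, a protease that cuts aggrecan, was at 67.6, 139.6 and 132 CPM against 5.61, 11.1 and 11 CPM, and *Adamts1* at 783, 438 and 309.6 CPM against 31.2, 37.3 and 46.5 CPM. Other clusters had more *Adamts4*, up to 140 CPM (cluster 4), 149 CPM (cluster 4) and 180 CPM (cluster 3). 3 of 7 matrix protease genes (*Adamts1*, *Adamts4* and *Adamts9*) and 4 of 8 protease inhibitor genes (among them *Timp2*, *Serpine2* and *Serping1*) were higher in all 3 libraries, beside 1.99% of all genes. None of 11 basement membrane genes was past 2-fold in all 3, and *Sparc* was at 2666, 2919 and 2436 CPM against 1469, 1446 and 1400.5 CPM. *Loxl2* was the only one of 13 collagen crosslinking genes, *Rgs16* of 8 RGS genes and *Nnmt* of 10 genes of nicotinamide and methyl donor metabolism past 2-fold in all 3 libraries. *Rgs5*, the RGS gene typical of pericytes, was lower than in canonical pericytes, 6589.6, 5124 and 4746 against 7780.2, 7501 and 8861 CPM.

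Among the genes of signalling and gene control, *Id3*, a target of BMP signalling, was at 1320.1, 712 and 571 CPM against 86.6, 56.6 and 92.1 CPM. It and *Bmp4*, which was lower, were the members of the 18 TGF-beta and BMP genes past 2-fold in all 3 libraries. Of all genes, 1.99% were higher and 1.16% lower in all 3, a share that applies to the next lists too. *Prrx1*, a transcription factor of mesenchymal cells, was at 359.8, 262 and 271 CPM against 89.2, 104 and 98.2 CPM and was the one of 19 mural and mesenchymal transcription factor genes past 2-fold. *Pdgfa*, a growth factor for mesenchymal cells, and *Angpt2*, an antagonist of the endothelial receptor Tie2, were the higher ones among 10 stromal cytokine genes. *Pdgfa* was at 325, 234 and 310.0 CPM against 84.7, 59 and 78 CPM. In the remaining lists few genes were past 2-fold in all 3 libraries. *Dcn* was higher among 6 proteoglycan genes, and *Ccn1* was higher and *Fbln1* lower among 8 matricellular genes. *Icam1* was higher among 2 lymphoid stromal genes that entered. *Ptgir* and *Trpc6* were higher and *P2ry14* and *Kcnk3* lower among 14 vasoactive genes, and *Igf2* was lower among 4 IGF genes. No gene was past 2-fold among 4 prostaglandin genes, 12 hypoxia and glycolysis genes and the 1 proliferation gene that entered.

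**Figure D3:**
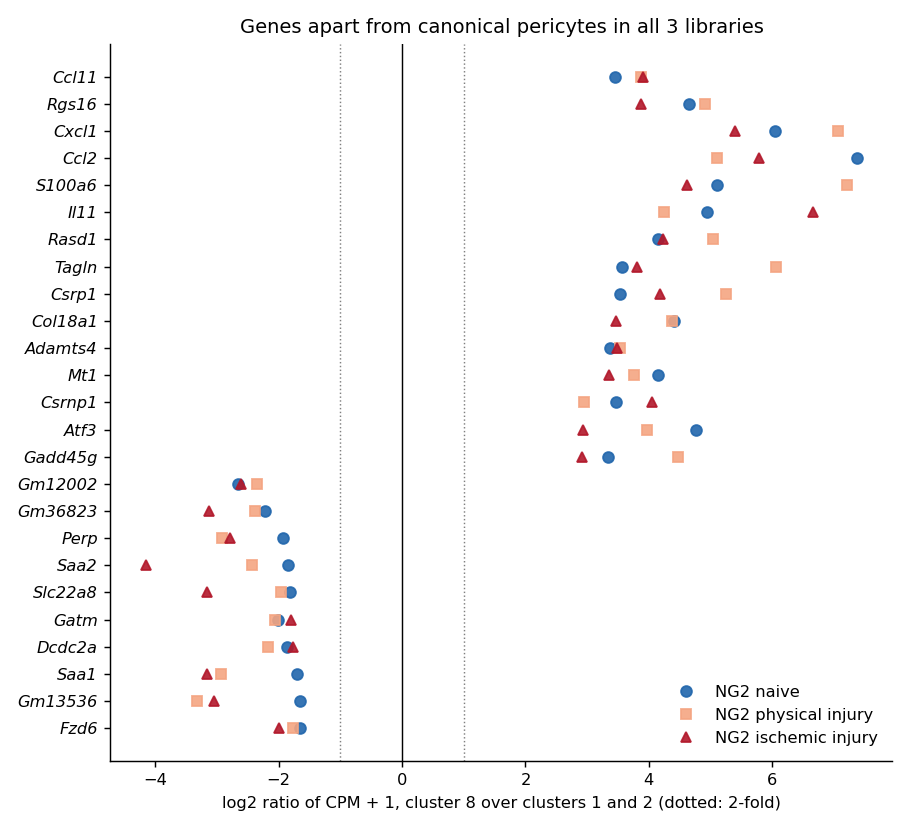
Log2 ratio of CPM + 1 between cluster 8 and clusters 1 and 2 in each NG2 library for the 15 higher and 10 lower genes that stood farthest apart in all 3 libraries (dotted lines, 2-fold). All 3 symbols of a gene lie on the same side, which the choice of the genes fixes, and of the 3 symbols of *S100a6* and of *Tagln* that of the physical injury library lies farthest right.

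Several transporter genes were lower than in canonical pericytes. *Slc22a8*, an organic anion transporter, was at 114, 90.8 and 34.4 CPM against 400.4, 355 and 317 CPM, and *Gatm*, an enzyme of creatine synthesis, at 254, 215 and 215 CPM against 1026, 893 and 747 CPM. *Gatm* was highest in cluster 4, at 1781, 1184 and 820 CPM. 6 of 12 pericyte transporter genes were at least 2-fold lower in all 3 libraries (among them *Atp13a5*, *Slc6a20a*, *Slc30a10*, *Slc22a8* and *Slc1a3*), beside 1.16% of all genes, and none was higher. *Atp13a5* was at 763, 764 and 489 CPM against 2392, 2698 and 2300.3 CPM. The other lower genes were *Fzd6*, a Wnt receptor (82.5, 68.5 and 58.3 against 261, 234 and 236 CPM), *Perp* (124, 59.2 and 49 against 477, 454 and 345 CPM), *Dcdc2a*, the serum amyloid genes *Saa1* and *Saa2* and the predicted genes *Gm12002*, *Gm36823* and *Gm13536*. *Saa1* and *Saa2* are near-identical, so that their counts could be split between them. Without the cells rich in smooth muscle or fibroblast genes, 3 of these genes were no longer 2-fold lower in the physical injury library, where their log2 ratios were -0.57 for *Slc22a8*, -0.66 for *Fzd6* and -0.48 for *Gm36823*.

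**Figure D4:**
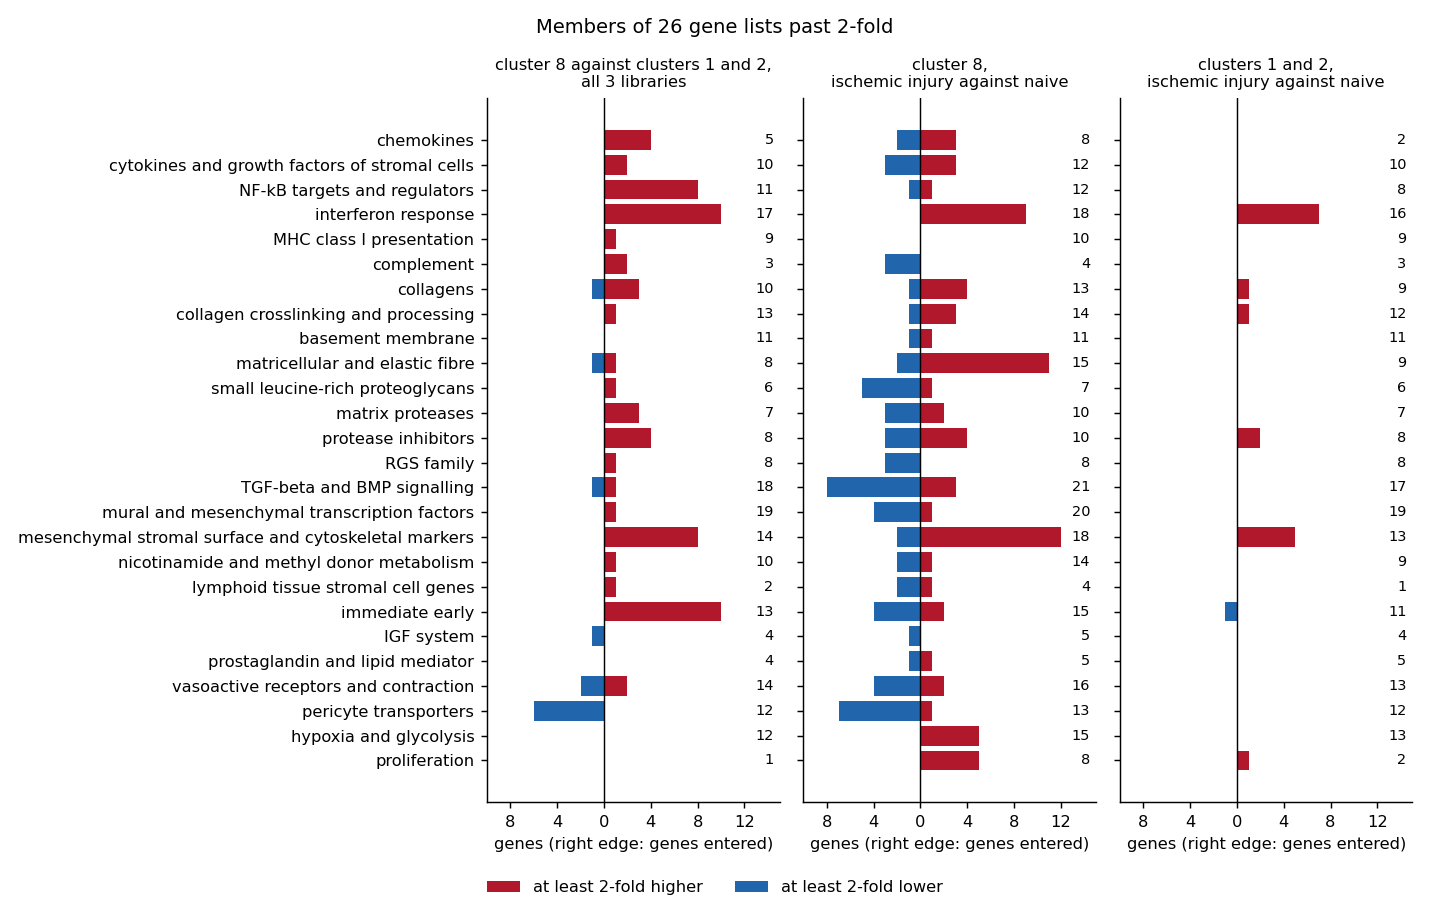
Number of genes of each of the 26 function lists at least 2-fold higher (red) or lower (blue), with the number that entered at the right edge, for cluster 8 against clusters 1 and 2 in all 3 libraries (left), cluster 8 after ischemic injury (middle) and clusters 1 and 2 after ischemic injury (right). The matricellular list has 11 of 15 genes higher in the middle panel and 0 of 9 in the right one, and the interferon list has 9 of 18 and 7 of 16. Of all genes 7.11% and 0.785% were higher, and the genes that entered differ between the panels.

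After both injuries *Timp1*, *Fn1*, *Bmp1* and *Rdh10* were at least 2-fold higher and *Txnip* was at least 2-fold lower than in the naive mesenchymal-like pericytes. *Ccl19* was lower after ischemic injury, but not past 2-fold after physical injury. Without the cells rich in smooth muscle or fibroblast genes it was lower after physical injury too, at 17 CPM (3 counts) against 129 CPM in naive cells. Of 9633 genes, 645 (6.7%) were at least 2-fold higher and 889 (9.23%) lower in the physical injury than in the naive library. For ischemic injury these were 679 (7.11%) higher and 1124 (11.8%) lower of 9544 genes, and against physical injury 240 (2.59%) higher and 388 (4.19%) lower of 9256. In canonical pericytes, thinned to the same UMIs, the counts were smaller. There 304 (3.22%) were higher and 301 (3.18%) lower of 9454 after physical injury, 194 (2.07%) and 143 (1.52%) of 9394 after ischemic injury, and 210 (2.23%) and 158 (1.68%) of 9419 between the injuries. At their full depth, which the gene list counts below use, 27 (0.293%) were higher and 41 (0.444%) lower of 9228 after physical injury, 73 (0.785%) and 40 (0.43%) of 9295 after ischemic injury, and 96 (1.04%) and 46 (0.496%) of 9272 between the injuries. Thinning matched the summed UMIs and not the number of cells. The mesenchymal-like pericytes were fewer than the canonical pericytes in every library. The part of cell number in the smaller counts of the canonical pericytes was not tested. All these counts compare single libraries. Both injury comparisons share the naive library. The split of higher and lower depended on the scaling, since TMM factors gave 783 higher and 736 lower genes for physical injury, 932 and 812 for ischemic injury, and 303 and 321 between the injuries. TMM moved the median log2 ratio of all genes from -0.09 to 0.01, from -0.15 to 0.03 and from -0.04 to 0.04.

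Matricellular and adhesive glycoproteins were among the genes that were higher after injury. *Tnc* (chr4:63959785-64047015, minus strand), tenascin-C, which is made in wounds, was at 0, 139.6 and 445 CPM, from 0, 106 and 1098 counts. It was at least 34.4-fold higher after physical and at least 109.6-fold higher after ischemic injury than the naive limit of 3 counts, and 3.19-fold higher (2.61 to 3.93) after ischemic than after physical injury. In the physical injury library 1 cell held 65.1% of the *Tnc* UMIs, and without it the level was 50.2 CPM. *Tnc* had a UMI in 0, 8.64 and 22.5% of cells (0, 3.75 and 10.5% after thinning), and in canonical pericytes its level was 0.137, 0.293 and 2.63 CPM. *Fn1*, fibronectin, was at 5.41, 121 and 165 CPM, 22.4-fold higher (8.45 to 83.9) and 30.4-fold higher (11.8 to 112), while canonical pericytes had 5.75, 4.69 and 11.8 CPM. Endothelial cells of the line (cluster 5) had more *Fn1*, 665, 896 and 1075 CPM. *Spp1*, osteopontin, was at 86.6, 59.2 and 910.5 CPM, 10.5-fold higher (8.20 to 13.7) in the ischemic than in the naive library, and in canonical pericytes it was at 289.5, 135 and 192 CPM. The physical injury value of *Spp1*, 10.7 CPM without its top cell, rests on 1 cell with 82.2% of its UMIs. The microglia of the line (cluster 9) had more *Spp1*, 273 and 2705 CPM after physical and ischemic injury.

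8 of 13 matricellular and elastic fibre genes were at least 2-fold higher after physical injury (*Fn1*, *Postn*, *Tnc*, *Thbs1*, *Thbs2*, *Ccn2*, *Emilin1* and *Mgp*), with a median log2 ratio of 1.47, beside 6.7% and -0.09 over all genes. After ischemic injury 11 of 15 were higher and *Ccn1* and *Eln* lower, with a median of 1.79 beside 7.11% and -0.15 over all genes, whereas in canonical pericytes 0 of 8 and 0 of 9 were higher, beside 0.293% and 0.785% of all genes. *Mgp*, an inhibitor of calcification, was the most abundant of them at 1324, 3347 and 4573 CPM, against 2105, 2305 and 2619 CPM in canonical pericytes. *Thbs1*, thrombospondin-1, was at 5.41, 82.9 and 96.8 CPM against 0.137, 0.880 and 1.32 CPM. In the physical injury library 1 cell held 52.4% of the *Thbs1* UMIs, and without it the level was 40.7 CPM. In the collagen list 4 of 13 genes were higher after physical injury (*Col1a1*, *Col5a3*, *Col6a2* and *Col16a1*) and 4 of 13 after ischemic injury (*Col5a3*, *Col6a2*, *Col6a3* and *Col15a1*), beside the same shares of all genes. *Col5a3* was at 52.7, 283 and 269 CPM, and *Col4a1*, the basement membrane collagen, at 1578, 2739.8 and 2222 CPM against 903, 951 and 1012 CPM. *Bmp1*, the protease that cuts the C-propeptide from procollagen, was at 14.9, 109 and 136 CPM, 7.34-fold higher (3.90 to 15.3) and 9.15-fold higher (5.05 to 18.5), and *Lamb1*, a laminin chain, at 85.2, 271 and 271 CPM against 131, 118 and 152 CPM.

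Genes that steer proteolysis of the matrix did not move together. *Plaur*, the urokinase receptor, was at 2.71, 63.2 and 128 CPM, 23.4-fold higher (6.12 to 198) and 47.2-fold higher (13 to 391) than in naive cells. *Plau*, urokinase, was at 46, 25 and 105 CPM, but 1 naive cell held 91.2% of its UMIs and without it the naive level was 4.10 CPM. *Timp3*, the matrix-bound inhibitor, went the other way with 1715, 596 and 392 CPM against 228, 196 and 285 CPM, and *Timp2* was at 137, 76.4 and 32.4 CPM against 4.93, 7.04 and 8.77 CPM. The levels of *Timp1* and *Timp3* in cluster 8 were therefore ordered in opposite ways across the libraries.

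Several cytoskeletal and surface genes were higher in both injury libraries. For *Vim*, *Acta2* and *S100a6* the physical injury difference was not past 2-fold without the cells rich in smooth muscle or fibroblast genes, as given below. *Vim*, vimentin, was at 365, 2411 and 2410.4 CPM, 6.60-fold higher (5.81 to 7.53) and 6.60-fold higher (5.84 to 7.48), against 91.7, 102 and 227 CPM in canonical pericytes. *Acta2* was at 281, 2167 and 1062 CPM, highest in the physical injury library, where 1 cell held 34.1% of its UMIs and the level without it was 1478 CPM. *S100a6* was 8.78-fold higher after physical and 6.87-fold higher after ischemic injury. *Lgals1*, galectin-1, was at 452, 2060.4 and 2873 CPM against 201, 217 and 517 CPM, and *Cd44*, the hyaluronan receptor, at 18.9, 47.4 and 69.3 CPM against 0.958, 0.880 and 1.75 CPM. 10 of 17 genes of the mesenchymal list were higher after physical and 12 of 18 after ischemic injury, with 2 lower each time. Of all genes 6.7% and 7.11% were higher and 9.23% and 11.8% lower. In canonical pericytes 0 of 10 and 5 of 13 were higher, beside 0.293% and 0.785% of all genes.

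Several of these values depended on the cells rich in smooth muscle or fibroblast genes, above all in the physical injury library. Without such cells *Acta2* was at 43.8, 51 and 17.9 CPM, *Vim* at 265, 459 and 1426 CPM and *S100a6* at 26.3, 22.7 and 362 CPM. The physical injury log2 ratio to naive was then 0.22 for *Acta2*, 0.79 for *Vim* and -0.20 for *S100a6*. *Acta2*, like *Tagln*, is on the list used to leave cells out, which lowers it by construction. *Tnc* was at 0, 0 and 408 CPM, so that its physical injury counts lay in the cells left out, while the ischemic level stayed close. *Timp1* (4.38, 85.1 and 119 CPM), *Loxl2* (32.8, 73.7 and 115 CPM) and *Fn1* (6.57, 45.4 and 85.5 CPM) were above naive in both injury libraries among the remaining cells. *Ccl19* was at 129, 17 and 7.65 CPM among them, with the naive library highest.

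Some interferon-induced genes were at least 2-fold higher after both injuries in both kinds of pericyte. *Ifit1*, an RNA-binding antiviral protein, was at 13.5, 144 and 98.9 CPM, 10.6-fold higher and 7.31-fold higher, and at 1.78, 14.1 and 12.7 CPM in canonical pericytes, 7.92-fold higher and 7.15-fold higher. *Isg15*, a ubiquitin-like protein, was at 94.7, 477 and 359.8 CPM against 16.4, 39.9 and 71 CPM. 9 of 18 interferon response genes were higher after each injury, beside 6.7% and 7.11% of all genes, and in canonical pericytes 4 of 13 and 7 of 16, beside 0.293% and 0.785%. *Cxcl10*, an interferon-induced chemokine, was at 2.71, 71.1 and 113 CPM, seen in 1, 6 and 17 cells. Without its top cell, which held 81.5% of the UMIs, the physical injury level was 13.3 CPM. The microglia of the line (cluster 9) had more *Cxcl10*, 609 and 525 CPM after physical and ischemic injury.

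Other genes were higher mainly in the ischemic library. *Cxcl2* was 11.2-fold higher (5.59 to 26.1) than in naive and 5.73-fold higher (3.47 to 10.2) than in physical injury cells. *Mt2*, a metallothionein, was at 54.1, 109 and 419 CPM against 7.39, 4.11 and 17.1 CPM. *Ednrb*, a receptor of endothelin-1, was at 35.2, 82.9 and 237 CPM, 2.36-fold higher (1.47 to 3.88) and 6.75-fold higher (4.56 to 10.4), and at 19.7, 13.8 and 20.2 CPM in canonical pericytes. 5 of 15 hypoxia and glycolysis genes (*Slc2a1*, *Hk2*, *Pgk1*, *Egln3* and *Adm*) were higher after ischemic injury, beside 7.11% of all genes. Canonical pericytes had 0 of 13 higher, near the 0.785% of all genes there. *Adm*, the vasodilator adrenomedullin, was at 18.9, 90.8 and 77 CPM and thus also higher in the physical injury library. Proliferation genes were at low levels, with *Top2a* at 1.35, 3.95 and 20.3 CPM.

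*Rdh10*, a retinol dehydrogenase, was at 44.6, 257 and 355 CPM against 34.8, 44 and 41.2 CPM, and *Ppp1r14b*, an inhibitor of protein phosphatase 1, at 21.6, 165 and 237 CPM. *Il6* was at 4.06, 40.8 and 30.4 CPM, with 0 counts in canonical pericytes of any library. *Runx1*, a transcription factor, was at 27.1, 81.6 and 106 CPM against 16.4, 14.4 and 16.7 CPM. Many ribosomal protein genes were higher after ischemic injury. 65 of 88 were then at least 2-fold higher, beside 7.11% of all genes, with a median log2 ratio of 1.23. After physical injury 22 of 87 were, beside 6.7% of all genes (median 0.78), and 1 was lower each time. Canonical pericytes had 0 of 88 higher after each injury (medians of -0.17 and 0.25), beside 0.293% and 0.785% of all genes. In the mesenchymal-like pericytes the median share of ribosomal protein genes in a cell's UMIs was 4.54%, 5.76% and 8.35%. This difference moved with the UMIs per cell (medians of 4026, 7733 and 8444), whose part in the comparisons was not tested.

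**Figure D5:**
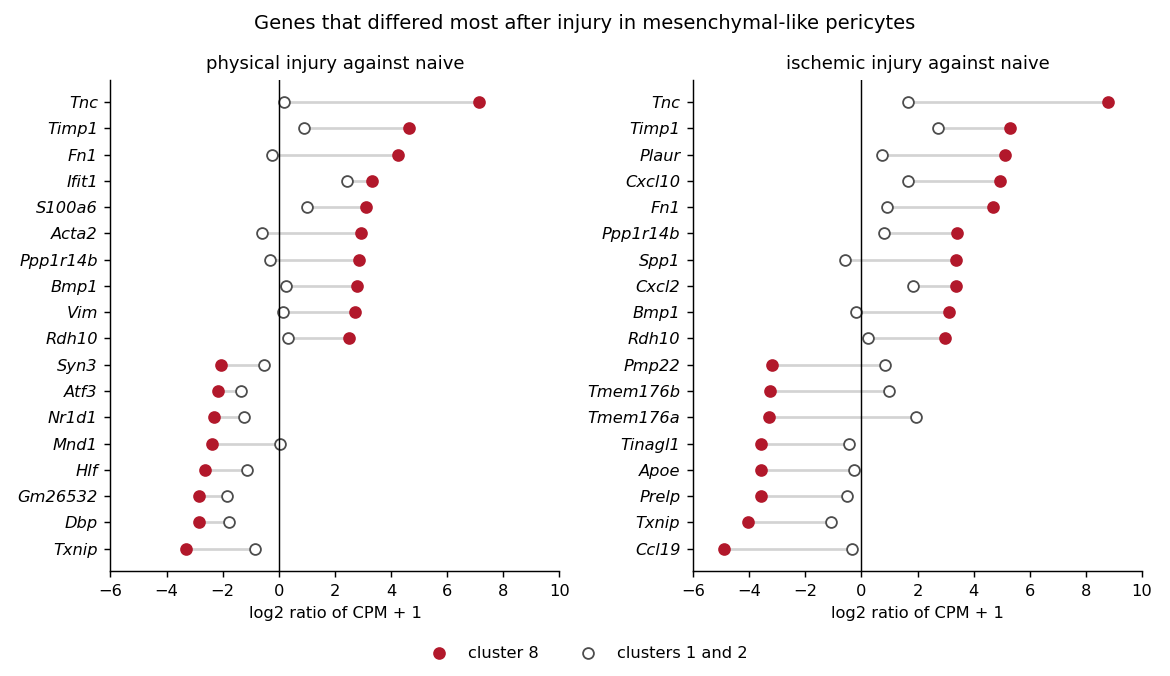
Log2 ratio of CPM + 1 after physical injury (left) and ischemic injury (right) against naive for the 10 higher and 8 lower genes that stood farthest apart in cluster 8 (red), with the same ratio in clusters 1 and 2 (open circles). Interferon-induced *Ifit1* lies to the right in both groups of cells, whereas *Tmem176a* lies at -3.28 in cluster 8 and at 1.95 in clusters 1 and 2.

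On the lower side were small leucine-rich proteoglycans, which bind collagen fibrils. 5 of 7 (*Ogn*, *Fmod*, *Prelp*, *Omd* and *Aspn*) were at least 2-fold lower and *Dcn* higher in both injury libraries, with median log2 ratios of -1.28 and -2.02. Of all genes 9.23% and 11.8% were lower, with medians of -0.09 and -0.15. In canonical pericytes 0 of 6 were past 2-fold, near the shares of all genes there (0.293% and 0.785% higher, 0.444% and 0.43% lower). *Prelp* was at 294, 81.6 and 23.5 CPM, 3.60-fold lower (2.70 to 4.85) and 12.5-fold lower (9.31 to 17), against 174, 156 and 121 CPM in canonical pericytes. *Ogn*, osteoglycin, was at 215, 97.4 and 28 CPM against 135, 191 and 119.7 CPM and *Aspn*, asporin, at 588, 241 and 189.6 CPM against 691, 613 and 615 CPM. *Dcn*, decorin, was at 120.4, 292 and 352 CPM against 57.6, 60.7 and 43 CPM.

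Several genes that were far above canonical pericytes in the naive library were closer to their level, or below it, in the ischemic library. *Tinagl1*, a basement membrane protein, was at 261, 69.8 and 21.1 CPM against 12.3, 7.33 and 8.77 CPM, 3.74-fold lower (2.75 to 5.17) and 12.4-fold lower (9.08 to 17.2) than in naive cells. *Apoe*, the lipid carrier apolipoprotein E, was at 1246, 404 and 104 CPM against 183, 137 and 154 CPM, 12-fold lower (10.4 to 13.8) after ischemic injury. *Pmp22*, a membrane protein, was at 254, 63.2 and 27.1 CPM against 4.65, 4.40 and 9.21 CPM. *Angpt1*, the agonist of Tie2, was at 304, 141 and 33.6 CPM against 22.2, 25.8 and 30.3 CPM, 2.16-fold lower (1.71 to 2.75) after physical and 9.05-fold lower (7.01 to 11.8) after ischemic injury. *Angpt2* was at 185, 101 and 24.3 CPM against 11.1, 10.6 and 7.89 CPM. Both angiopoietin genes were thus highest in the naive and lowest in the ischemic library, as *Ccl19* was. *Anxa1*, an anti-inflammatory annexin, was at 372, 258 and 49.8 CPM against 8.62, 7.33 and 14 CPM, and the ischemic level was 5.18-fold lower (4.11 to 6.54) than the physical injury level. Without the cells rich in smooth muscle or fibroblast genes the direction was the reverse, with *Anxa1* at 28.4 CPM (5 counts) after physical and 51.0 CPM (40 counts) after ischemic injury.

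*Tmem176b*, a transmembrane protein of intracellular vesicles, was at 179, 75 and 17.8 CPM against 5.06, 7.04 and 11 CPM, and its neighbour *Tmem176a* at 123, 86.9 and 11.8 CPM. In the physical injury library 1 cell held 45.5% of the *Tmem176a* UMIs, and without it the level was 48.6 CPM. *C1s1*, a protease subunit of C1, was at 101, 36.9 and 11.8 CPM against 29.7, 5.87 and 18 CPM. *Lox*, the founding lysyl oxidase, was scarce and lower in both injury libraries (12.2, 5.27 and 2.84 CPM), although *Loxl2* was higher.

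*Dbp*, *Nr1d1* and *Hlf* have a daily rhythm in many tissues. *Dbp* was at 206, 27.6 and 44.6 CPM against 373, 109 and 259 CPM and *Nr1d1* (Rev-erb alpha) at 181, 35.5 and 51.5 CPM against 279, 117 and 156 CPM. *Hlf* was at 179, 27.6 and 34 CPM against 245, 112 and 199 CPM. In the mesenchymal-like pericytes all 3 genes were at least 2-fold lower after both injuries, and in the canonical pericytes after physical injury only. Without the cells rich in smooth muscle or fibroblast genes the physical injury log2 ratio of *Nr1d1* was -0.99, just short of 2-fold. They follow the time of day, which the labels do not give for the collection of the cells, and its part in the differences was not tested. *Txnip*, the inhibitor of thioredoxin and of glucose uptake, was at 836, 82.9 and 50.2 CPM, 10.1-fold lower (7.77 to 13.3) and 16.6-fold lower (13.7 to 20.3), compared with 154, 85.7 and 71.9 CPM. Immediate early genes were lower after physical injury in both, 8 of 13 in the mesenchymal-like (median log2 ratio -1.38) and 7 of 11 in the canonical pericytes, beside 9.23% and 0.444% of all genes. After ischemic injury 4 of 15 were lower and 2 higher in the mesenchymal-like pericytes, and 1 of 11 was lower in the canonical ones. Of all genes 11.8% were lower and 7.11% higher in the former and 0.43% lower in the latter. *Jun* was at 8829, 2224 and 2949 CPM against 3067, 1165 and 1497 CPM.

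Pericyte functions were also represented on the lower side after ischemic injury. 7 of 13 transporter genes were lower, beside 11.8% of all genes, and *Slc7a11*, the cystine transporter, was higher. Canonical pericytes had 0 of 12 past 2-fold, near their shares of all genes (0.785% higher and 0.43% lower). *Adra2a*, an adrenergic receptor, was at 82.5, 43.4 and 7.29 CPM against 9.71, 8.51 and 8.77 CPM, and *Agtr1a*, the angiotensin receptor, at 35.2, 1.32 and 0.405 CPM. *Tbx18*, the transcription factor that marks mural cells, was at 269, 150.1 and 98.5 CPM against 186, 172 and 151 CPM. Of the TGF-beta and BMP list, 3 of 21 genes were higher (*Tgfb1*, *Tgfb2* and *Smad7*) and 8 were lower, among them *Id3*, beside 7.11% and 11.8% of all genes. Canonical pericytes had 0 of 17 past 2-fold, again near the 0.785% higher and 0.43% lower of all genes there. *Syn3* (147, 34.2 and 22.7 CPM), *Mnd1* (170.4, 31.6 and 35.7 CPM), *Thsd7a* (184, 126 and 29.2 CPM), *Parm1* (145, 145 and 40.5 CPM) and the predicted genes *Gm26532*, *Gm20594* and *Gm47283* were the remaining genes that stood farthest apart in an injury comparison, the last of them on the higher side. *Gm47283* is annotated on chromosome Y and was at 33.8, 17.1 and 112 CPM. The libraries were pooled from both sexes, and the part of their mix in this difference was not tested.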

How the data were processed

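Tissue was digested with papain, and live tdT+/DAPI- cells were sorted and profiled with 10x Genomics 3' chemistry. The authors ran Cell Ranger (7.0.0 per the labels) on the mm10 genome and deposited raw UMI counts. They kept genes seen in at least 3 cells, and cells that had at least 200 genes, no more than 12% mitochondrial transcripts and gene and UMI totals inside 2 SD of the average. The percent of mitochondrial and ribosomal transcripts was deposited by the authors for each cell. Cluster numbers come from their Seurat integration of the 3 NG2 libraries. Doublets are mentioned neither in the methods nor in the labels, and no caller was run. The annotation release behind the counts is not given in the sources used here, and positions come from GENCODE.

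Counts of 22833 genes were summed over the cells of cluster 8, and over clusters 1 and 2, library by library, and expressed as CPM with 95% Poisson intervals (exact). Ratios have exact conditional binomial intervals. Both cover counting error only. Log2 ratios used a pseudocount of 1 CPM, at least 10 CPM in the higher group and a threshold of 2-fold. With 1 pooled library per condition, no test was made. The cluster 8 cells, 26 function lists (424 genes) and 13 cell type lists, 12 genes of which are not in the table, were chosen with earlier results of these data known. Named were the markers, the 15 higher and 10 lower genes farthest from canonical pericytes in all 3 libraries (at least 50 CPM), the 10 higher and 8 lower genes of each injury comparison (at least 100 CPM) and up to 4 genes of each list. Genes listed by name only, *Col6a2* and *Col16a1* among them, and *Lox*, *Cxcl12*, *Notch3* and the markers of other cells were added to account for small counts. Some genes that this rule selects are not reported here. Mitochondrial genes, Gm42418 and AY036118 were left out. For shares of cells with a UMI, cells were thinned to 1000 UMIs. A separate deposited table of the naive libraries was used only for its cluster numbers. The calculations were tested on simulated data, using R 4.3.3 with edgeR 4.0.16 (TMM) and Python 3.11.15 with scipy 1.17.1, numpy 2.4.6, pandas 2.3.3 and matplotlib 3.10.9.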

Additional observations from a re-analysis of the deposited data

Results flagged for a closer look

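In 2 genes the mesenchymal-like and the canonical pericytes of the NG2 line lay on opposite sides. *Tmem176a* had a log2 ratio of -3.28 between ischemic injury and naive in cluster 8 and of 1.95 in clusters 1 and 2. *Tagln* had a log2 ratio of -1.25 between ischemic and physical injury in cluster 8 and of 1.01 in clusters 1 and 2. Without the cells rich in smooth muscle or fibroblast genes, a choice for which *Tagln* itself was used, it was at 17.0 CPM after physical and 16.6 CPM after ischemic injury in cluster 8. *Ccl19* had a log2 ratio of -4.91 between ischemic injury and naive in cluster 8, and of 2.99 in cluster 2 of the Tbx18 line. With 1 library per condition, none of these differences was tested.

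Marker genes of the mesenchymal-like pericytes were also present in the Tbx18 line, which is outside the comparisons of the NG2 line given above. Cluster 2 of that line, the one with the highest sum of *Vtn*, *Pdgfrb*, *Kcnj8* and *Abcc9*, had more *Ccl19*, *Rgs16*, *Nnmt* and *Loxl2* in the injury libraries than in its naive library. Other marker genes differed there too. *Acta2*, of smooth muscle, was at 96.8, 1615 and 573 CPM, *Vtn* at 12420, 7714 and 8131 CPM and *Abcc9* at 1724, 664 and 780 CPM, and their part in the levels of the other genes was not tested. *Ccl19* was at 30.3 CPM in naive, 224 CPM in physical injury and 247 CPM in ischemic injury cells, and *Rgs16* at 73.3, 542 and 669.7 CPM. *Nnmt* was at 9.41, 64.7 and 73.8 CPM and *Loxl2* at 7.40, 31.0 and 28.4 CPM. *Timp1* was at 0, 15.5 and 14.2 CPM, and *Ccl11* was at 36.4 CPM in the physical injury library against 17.5 CPM in the naive one. Single cells held 60% of the naive *Ccl19*, 47.7% of the naive *Rgs16*, 42.7% of the physical injury *Nnmt* and 37.0% of the physical injury *Ccl11* UMIs. Without the top cell of each library, cluster 2 had *Ccl19* at 12.2, 199 and 219 CPM, *Rgs16* at 38.7, 507 and 596 CPM, and *Nnmt* at 7.45, 37.3 and 60.7 CPM. *Ccl11* was then at 12.2 CPM in the naive and 23.0 CPM in the physical injury library. *Timp1* without the top cell was at 10.8 and 8.78 CPM after physical and ischemic injury. Cluster 4 of the same line had more *Timp1* and *Loxl2* after injury than cluster 2. There *Timp1* was at 6.87, 1741 and 2233 CPM and *Loxl2* at 3.43, 57.8 and 92.9 CPM. The Tbx18 line was clustered separately, so that its cluster 2 is not the same class as cluster 8 of the NG2 line. Whether more cells of such a class, or more transcripts per cell, lie behind these levels was not tested.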

How the results depend on the processing

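Of 2276 values of 155 gene ratios under 16 other settings, 1967 moved by less than their counting interval, 306 moved by more and 3 reversed. Of 2120 values of called ratios, 2106 stayed at or past 2-fold. Both counts include values that could not move. A change of the CPM minimum alters which genes enter and no ratio. The choice among naive cells alters no ratio without naive cells. The totals are thus no measure of how stable the ratios are. The reversals came when cells rich in fibroblast or smooth muscle genes were left out: the log2 ratio was then -0.20 for *S100a6* (physical injury against naive), -0.95 for *Tagln* (ischemic library, against canonical pericytes) and 0.83 for *Anxa1* (ischemic against physical injury). The cause was not tested.

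Counts of higher and lower genes depended more on the settings. With no CPM minimum, 286 and 184 genes differed from canonical pericytes in all 3 libraries, 2184 and 2606 between physical injury and naive, 1699 and 2418 between ischemic injury and naive, and 1259 and 1521 between the injuries. At a minimum of 50 CPM these were 89 and 56, 217 and 236, 291 and 364, and 41 and 60. A pseudocount of 5 CPM gave 118 and 187 between the injuries, and thinning the deeper group gave 615 lower. Without the cells rich in fibroblast or smooth muscle genes, the counts were 102 and 67 in all 3 libraries, 1264 and 1397 for physical injury, and 1066 and 1512 between the injuries. Leaving out 1 library gave 198 to 416 higher and 149 to 377 lower genes, most without the naive library, since fewer libraries had to meet the threshold. Settings chosen after seeing the data were leaving out each gene's top cell (165 lower in all 3 libraries, 223 lower between the injuries), keeping only naive cells that were also in cluster 9 of the naive data (156 lower in all 3 libraries), and leaving out cells with genes of other cell types, which moved no count by over 1.5 times. Shares of cluster 8 were 5.11%, 6.69% and 17.5% of pericytes, 5.58% and 14.6% of mural cells after physical and ischemic injury, and 3.46% for cluster 9 of the naive data. No paired analysis was possible because each condition has 1 library. Depth limits rare genes most in the naive and physical injury cells, where 3 counts are 4.06 and 3.95 CPM.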

Other observations

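The naive cells were also clustered by the study together with the naive cells of the Tbx18 line. Of the 177 naive mesenchymal-like pericytes, 127 (71.8%) were in cluster 9 of those data, which held 149 cells of the library, and 25 (14.1%) in cluster 0. The 127 cells and the other 50 had unequal levels of many named genes. *Ccl19* was at 362 CPM in the former and 0 in the latter, *Cxcl1* at 904 and 108 CPM, *Rgs16* at 679 and 95.1 CPM, and *Tinagl1* at 378 and 4.3 CPM. *Apoe* was at 1735 and 173 CPM, *Pmp22* at 366 and 8.6 CPM, *Anxa1* at 534 and 17.3 CPM and *Angpt2* at 266 and 8.6 CPM. In contrast, *Ccl11* was at 74.8 and 82.1 CPM and *Loxl2* at 35.4 and 30.2 CPM. Both groups had similar depth, with medians of 3791 and 4453.5 UMIs per cell. These groups were formed on expression, so the values are a description.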
